A study of Mus musculus with 9 samples.

Results

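The PGC-1 coactivators Ppargc1a, Ppargc1b and Pprc1 and the transcription factors they work with (Esrra, Nrf1, Gabpa, Gabpb1, Ppara, Ppard and Nfe2l2) were followed in mouse T-cell lymphomas that maintain telomeres either by alternative lengthening (ALT) or by telomerase. Every probe set that the array annotation maps to 1 of these 10 genes and to no other was taken, which gave 24 of the 45037 probe sets that are not controls. The ALT group was 5 tumours at passage 4 in SCID mice given vehicle. The telomerase group was 3 tumours at passage 4 in SCID mice given 4-hydroxytamoxifen (4-OHT). The parental tumour was a single array, labelled telomerase-positive, with neither passage nor drug in its label. All tumours had the genotype G3 Atm-/-TERT-ER: they lack the DNA damage kinase Atm and carry TERT-ER, a fusion of the catalytic subunit of telomerase with the oestrogen receptor that 4-OHT switches on. The labels name no promoter for TERT-ER. They also leave unsaid whether tumours of a group grew in separate animals, so the p-values reflect only how far these arrays spread. The design sets ALT against telomerase in tumours of common parental lines, and because the groups also differed in 4-OHT, effects of the drug, of telomerase activity and of ALT cannot be told apart.

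PGC-1 proteins bind no DNA themselves. They are recruited by transcription factors and bring in the machinery that opens chromatin and starts transcription, and together with their partners they set the production of mitochondria. Esrra encodes the oestrogen-related receptor alpha, an orphan receptor that drives genes of oxidative metabolism. Nrf1, the nuclear respiratory factor, and GABP, a complex of the DNA-binding subunit Gabpa with Gabpb1, act on genes of the respiratory chain and on Tfam. The Tfam protein packages mitochondrial DNA and helps to start its transcription. Ppara and Ppard are lipid-activated receptors that switch on fatty acid oxidation, and Nfe2l2 drives antioxidant genes. The aliases overlap: NRF2 has been used for both GABP and Nfe2l2, and NRF1 also for Nfe2l1, so gene symbols are used throughout.

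The tumours carried T-cell transcripts, and 13 of 15 T-cell markers were measured. Their summed signal was 35933 to 43887 in ALT tumours, against 43817 to 46656 in telomerase tumours. In the limma fit described below, 3 of these 13 were higher in ALT tumours and 3 lower, against 7.47% and 10.1% of all tested genes. Markers of other cells gave signal in every array. Those of macrophages summed to 5693 to 9090 in ALT and 5473 to 8207 in telomerase tumours. Those of stroma and endothelium summed to 4375 to 7544 and 5304 to 7109, and those of adipocytes to 1312 to 2021 and 1828 to 2434. Of the 8 adipocyte markers measured, 3 were bright enough to be tested. One of these, Fabp4, averaged 1162 in ALT and 1802 in telomerase tumours and made up much of the adipocyte sum. Some tissue was uneven: the summed signal of 13 pancreatic acinar markers was 91235 to 184744 in ALT 1, ALT 2 and ALT 5 and 118882 in telomerase 3, and between 283 and 992 in the remaining arrays. Markers of skeletal muscle, a tissue rich in PGC-1 transcripts, summed to 10203 in telomerase 1 and 15764 in the parental tumour, and to between 322 and 768 elsewhere. None of the 13 acinar or 14 muscle markers lay below 16 in every array. The macrophage marker Marco and the hepatocyte marker Ahsg did. The part of these transcripts in the results was not tested beyond the comparisons within arrays and the fits with a term for acinar transcripts given below.

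Of the 24 probe sets, 16 passed the filter on low signal and were tested, and these belong to 9 of the 10 genes. All 5 probe sets of Ppargc1a, 2 of Ppara and 1 of Ppard lay below it. In the limma fit 3 of the 16 were higher in ALT tumours and 0 were lower, namely the single probe sets of Ppargc1b and Pprc1 and the dimmer of the pair for Gabpa. Over the whole array 18.8% of tested probe sets were called, 7.08% higher and 11.7% lower. The share of members called, 3 of 16, is thus close to that of the array. At an unadjusted p under 0.05 there were 5, 4 of them higher and 1 lower, against 31.7% of all probe sets. Both groups were fully separated in 5 of the 16, each time with ALT above telomerase, against 25.4% of all tested probe sets separated in either direction, 9.92% with ALT above and 15.5% with ALT below. The median log2 change was 0.05 over the 16 and -0.02 over all tested probe sets. The plot of changes by probe set shows all 16.

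**Figure D1:**
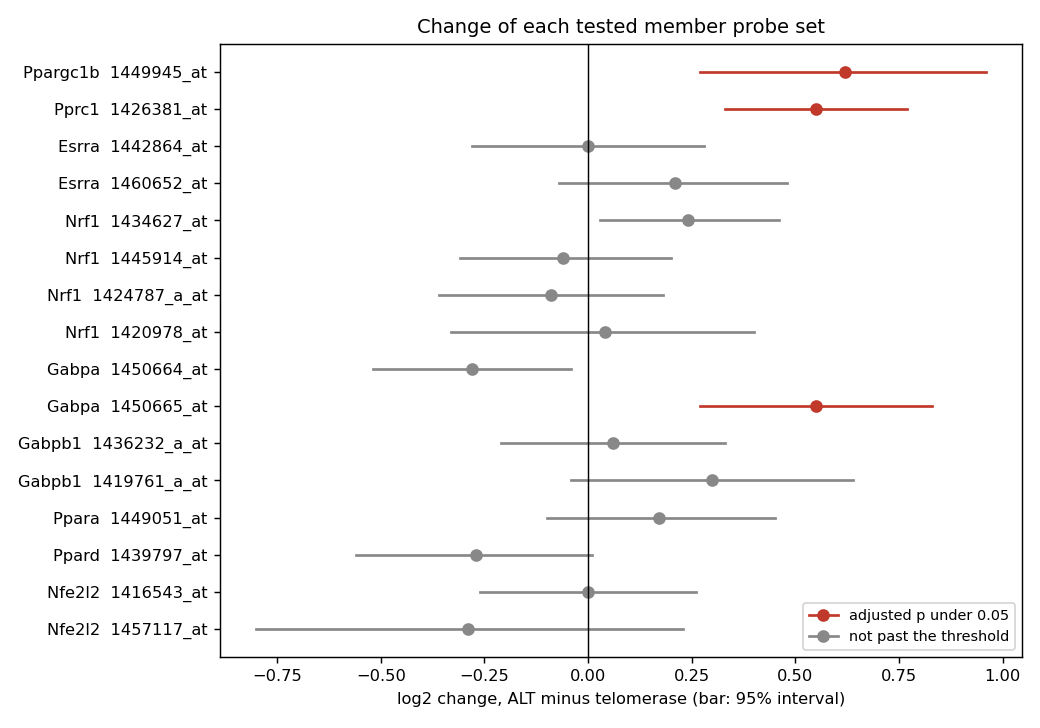
Log2 change of signal plus 16, ALT minus telomerase, for each of the 16 tested member probe sets (points, with 95% intervals of the limma fit as bars; 5 ALT and 3 telomerase tumours). Ppargc1b, Pprc1 and Gabpa 1450665_at lie to the right of 0 and pass the threshold, while the other Gabpa probe set lies to the left.

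Ppargc1b, the PGC-1 beta coactivator, was higher in ALT tumours. Its probe set 1449945_at gave 833, 1308, 1043, 1030 and 1320 in the ALT tumours, against 713, 804 and 615 in the telomerase tumours. All 5 ALT values lay above all 3 telomerase values, with ALT 1 close to telomerase 2, and the parental tumour was below both groups at 588. The means were 1107 ± 207 (SD, n = 5) in ALT and 711 ± 94.4 (SD, n = 3) in telomerase tumours. The log2 change was 0.62 (SE 0.156, 95% interval 0.27 to 0.96, limma adjusted p = 0.0204), a fold of 1.53. These are bulk tumours, in which more cells of a type and more RNA per cell cannot be told apart. The call was lost without telomerase 1 (log2 change 0.62, adjusted p = 0.0694) and without telomerase 3 (0.52, adjusted p = 0.0815). It was also lost within the arrays that lack acinar transcripts (0.44, adjusted p = 0.0826). Within those that carry them, which include a single telomerase tumour, the log2 change was 0.86. With a term for acinar transcripts in the fit of both groups the call was kept (0.62, limma adjusted p = 0.0312).

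Pprc1, the PGC-1-related coactivator, which responds to growth signals, was higher in ALT tumours as well. Its probe set 1426381_at gave 1025, 920, 867, 891 and 1080 in the ALT tumours, against 676, 656 and 610 in the telomerase tumours. The groups were well apart, and the parental tumour, at 636, lay among the telomerase tumours. The means were 957 ± 91.5 (SD, n = 5) in ALT and 647 ± 33.9 (SD, n = 3) in telomerase tumours, a fold of 1.46 (log2 change 0.55, SE 0.0987, 95% interval 0.33 to 0.77, limma adjusted p = 0.00377). The call held whichever array was left out, with adjusted p between 0.00504 and 0.0188. Within the arrays without acinar transcripts the change was 0.39 (adjusted p = 0.109), and within those with them, where telomerase has 1 tumour, it was 0.71. With a term for acinar transcripts in the fit of both groups the change was 0.52 (limma adjusted p = 0.00961).

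The promoters of Pprc1 and Gabpa, the called members with an entry in the RefSeq promoter table (GRCm38.p6), are shown because both had a probe set that was higher in ALT. Each is the 250 bases before the annotated start, 5′ to 3′ on the plus strand, at chr19:46056289-46056538 for Pprc1 and chr16:84834874-84835123 for Gabpa. Capitals mark matches to the motifs searched on both strands, which were the consensus Nrf1 motif, CCGGAAGT for GABP, TCAAGGTCA for Esrra and TGACNNNGC for Nfe2l2, and no matches of different motifs overlapped.
Pprc1: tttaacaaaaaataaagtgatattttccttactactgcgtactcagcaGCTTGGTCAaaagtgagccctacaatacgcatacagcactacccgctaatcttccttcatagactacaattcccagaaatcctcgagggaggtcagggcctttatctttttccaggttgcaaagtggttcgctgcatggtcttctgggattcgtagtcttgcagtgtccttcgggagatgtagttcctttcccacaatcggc
Gabpa: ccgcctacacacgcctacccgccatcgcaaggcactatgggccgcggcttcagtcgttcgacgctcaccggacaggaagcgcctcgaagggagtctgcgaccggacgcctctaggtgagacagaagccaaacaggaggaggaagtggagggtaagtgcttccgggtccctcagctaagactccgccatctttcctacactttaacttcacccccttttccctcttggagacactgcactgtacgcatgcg
The Pprc1 window held 1 match, to the Nfe2l2 motif on the opposite strand, a motif found in 10.2% of all 32851 promoter windows of this length. The Gabpa window held 0 matches to these letters. Over all windows the Nrf1 motif was present in 3.74%, the GABP motif in 2.88% and the Esrra motif in 0.387%.

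Ppargc1a, the PGC-1 alpha coactivator that is abundant in muscle, brown fat and liver, stayed near the bottom of the scale. Its 5 probe sets ranged from 1.78 to 26.1 over all 9 arrays, and their means stood between the 2.67 and 15.3 percentiles of the array. One of them, 1434100_x_at, has a suffix that warns of probes shared with other sequences. The brightest, 1456395_at, gave 10.3, 26.1, 3.64, 14.8 and 10.3 in ALT tumours and 4, 4.48 and 7.45 in telomerase tumours, so the groups overlapped. Without the filter on low signal none of the 5 passed, with limma adjusted p between 0.316 and 0.906 and unadjusted p between 0.0868 and 0.762. In the arrays rich in muscle transcripts the 5 probe sets gave 3.99 to 12.2 (telomerase 1) and 2.7 to 9.42 (parental). At this signal a difference in Ppargc1a was not detectable.

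**Figure D2:**
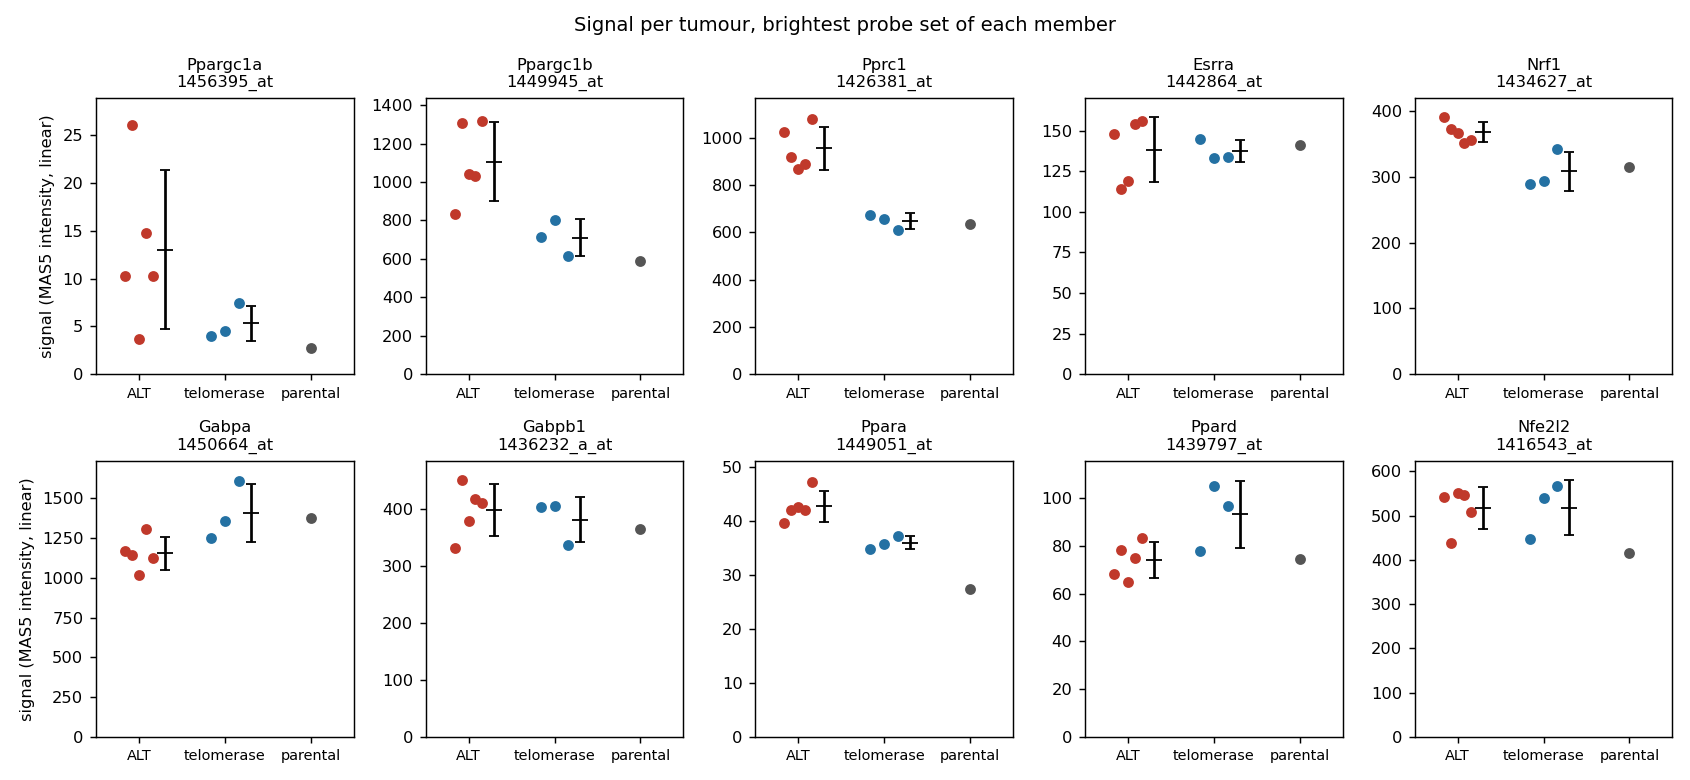
Signal of the brightest probe set of each of the 10 genes in every tumour (points; linear MAS5 intensity from 0), with group mean and SD as black bars for 5 ALT and 3 telomerase tumours, and the single parental array. In Ppargc1b, Pprc1, Nrf1 and Ppara all ALT points lie above all telomerase points; in the other panels the groups overlap.

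Gabpa, the subunit of GABP that contacts DNA, was read by a pair of probe sets whose changes had opposite signs. The brighter, 1450664_at, gave 1171, 1146, 1015, 1310 and 1125 in ALT tumours, against 1253, 1360 and 1609 in telomerase tumours. The groups overlapped through ALT 4 and telomerase 1, and the mean of 1153 ± 106 (SD, n = 5) in ALT against 1407 ± 182 (SD, n = 3) in telomerase tumours missed the threshold (log2 change -0.28, SE 0.107, limma adjusted p = 0.0974). With the parental array counted in the telomerase group it was -0.28 with an adjusted p of 0.0494. The dimmer, 1450665_at, gave 295, 263, 318, 283 and 306 in ALT tumours, against 157, 209 and 223 in telomerase tumours. Here the groups did not overlap, and the mean of 293 ± 21.1 (SD, n = 5) in ALT against 196 ± 35.1 (SD, n = 3) in telomerase tumours was a log2 change of 0.55 (SE 0.127, 95% interval 0.27 to 0.83, adjusted p = 0.0127). This call was lost without telomerase 1 (0.41, adjusted p = 0.0634), which held the lowest value. Within the arrays without acinar transcripts the change was 0.68 (adjusted p = 0.0619), and within those with them, where telomerase has 1 tumour, it was 0.34. With a term for acinar transcripts in the fit of both groups the change was 0.53 (limma adjusted p = 0.0286).

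The difference between the Gabpa probe sets was itself tested. The log2 value of the brighter minus that of the dimmer averaged 1.92 ± 0.20 (SD, n = 5) in ALT and 2.75 ± 0.13 (SD, n = 3) in telomerase tumours, a difference of -0.83 (SE 0.132, 95% interval -1.13 to -0.54, limma adjusted p = 0.00271 over 9987 pairs). As a ratio of signals, the brighter over the dimmer was 3.97, 4.35, 3.19, 4.62 and 3.67 in ALT tumours, against 8, 6.5 and 7.21 in telomerase tumours, and 7.22 in the parental tumour. Every ALT ratio lay well below every telomerase ratio; how large a ratio is does not compare levels, since probes differ in brightness. The call held whichever array was left out, with differences from -0.90 to -0.76 and adjusted p from 0.00253 to 0.0183. Over the array 18.1% of such pairs were called, and in 12.1% of all pairs the call came with changes of opposite sign, so a discordant pair is common in these tumours. The annotation does not say which end or form of the Gabpa transcript each probe set reads.

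**Figure D3:**
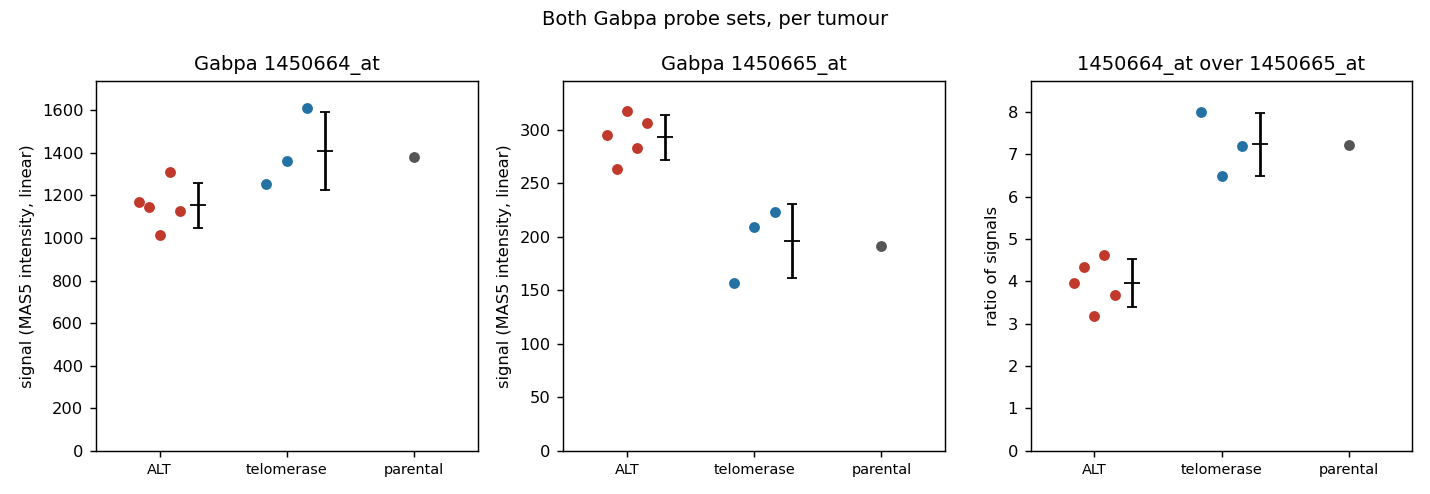
Signals of both Gabpa probe sets (left and middle; linear MAS5 intensity from 0) and the ratio of 1450664_at to 1450665_at (right; no unit) in every tumour, with group mean and SD as black bars for 5 ALT and 3 telomerase tumours and the single parental array. The ratio is 3.19 to 4.62 in ALT tumours and 6.5 to 8 in telomerase tumours.

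Gabpb1, the partner subunit that carries the activation domain of GABP, missed the threshold with both probe sets. Probe set 1436232_a_at gave 398 ± 45.1 (SD, n = 5) in ALT and 381 ± 38.9 (SD, n = 3) in the telomerase group (log2 change 0.06, limma adjusted p = 0.786). Probe set 1419761_a_at gave 178 ± 28.8 in ALT and 142 ± 27.7 in telomerase tumours (log2 change 0.30, 95% interval -0.04 to 0.64, adjusted p = 0.209). The groups overlapped in both.

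Nrf1 had 4 probe sets, of which the brightest separated the groups. This probe set, 1434627_at, gave 391, 373, 367, 352 and 357 in ALT tumours, against 289, 294 and 343 in telomerase tumours. The groups did not overlap, but the log2 change of 0.24 (SE 0.0974, 95% interval 0.03 to 0.46) had a limma adjusted p of 0.111. The other 3 had log2 changes of -0.06, -0.09 and 0.04 with adjusted p between 0.663 and 0.913, and their groups overlapped. Set against these 3 in turn, the change of the brightest differed by 0.30, 0.33 and 0.21, with adjusted p of 0.0995, 0.174 and 0.483. The 0.33, against 1424787_a_at, became 0.53 with an adjusted p of 0.0217 without telomerase 3.

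Esrra, the receptor through which PGC-1 proteins act on many genes of the respiratory chain, had 2 probe sets. Probe set 1442864_at gave 138 ± 20.2 (SD, n = 5) in ALT and 137 ± 6.43 (SD, n = 3) in telomerase tumours, with a log2 change of 0.00 and a 95% interval from -0.28 to 0.28. Probe set 1460652_at gave 143 ± 19.6 in ALT and 121 ± 8.58 in telomerase tumours (log2 change 0.21, 95% interval -0.07 to 0.48, limma adjusted p = 0.296). In both, ALT 1, ALT 4 and ALT 5 were the highest ALT tumours and ALT 2 and ALT 3 the lowest. The Esrra pair differed by -0.21 between the groups (adjusted p = 0.223).

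Among the lipid receptors, Ppara was dim. Its tested probe set, 1449051_at, gave 39.5, 42, 42.5, 41.9 and 47.2 in ALT tumours, against 34.8, 35.7 and 37.2 in telomerase tumours and 27.3 in the parental tumour. The groups did not overlap, yet the log2 change was 0.17 (SE 0.123, 95% interval -0.10 to 0.45, limma adjusted p = 0.372). The other Ppara probe sets ranged from 3.61 to 39 with overlapping groups. Ppard, the receptor of the same family found in most tissues, was read by 1439797_at with 74 ± 7.51 (SD, n = 5) in ALT and 93.2 ± 13.8 (SD, n = 3) in the telomerase group (log2 change -0.27, 95% interval -0.56 to 0.01, adjusted p = 0.168). Telomerase 1, at 77.9, lay inside the ALT range. Its other probe set, 1425703_at, stayed between 1.14 and 8.33.

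Nfe2l2, the regulator of antioxidant genes, gave 541, 438, 550, 547 and 507 in ALT tumours with 1416543_at, against 447, 539 and 567 in telomerase tumours. The groups overlapped fully, and the log2 change was 0.00 (95% interval -0.26 to 0.26, limma adjusted p = 0.999). The dim probe set 1457117_at had a log2 change of -0.29 (95% interval -0.80 to 0.23, adjusted p = 0.44). Altogether 5 genes had more than 1 tested probe set, and of the 7 pairs the one for Gabpa was called, against 18.1% of pairs over the array. At an unadjusted limma p under 0.05 there were the Gabpa pair (0.000139) and Nrf1 1434627_at with 1445914_at (0.0234), against 29.4% of all pairs.

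The parental tumour lay nearer to the telomerase mean than to the ALT mean in 12 of the 16 tested probe sets and nearer to the ALT mean in 4. The share over all tested probe sets was not computed, so this count is not read as a trait of the members. In Esrra 1442864_at and Nfe2l2 1416543_at the group means differed by 0.00, and which is nearer carries no meaning there. Against the telomerase mean it stood lower in Ppargc1b (log2 difference -0.26), Ppara 1449051_at (-0.26), Ppard 1439797_at (-0.26) and Nfe2l2 1416543_at (-0.30), and close to it in Pprc1 (-0.02) and in both Gabpa probe sets (-0.02 each). A single array gives no test of these differences.

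The wider network was read through 6 lists, with the brightest probe set of each gene. Over all 12375 tested genes 17.5% were called, 7.47% higher and 10.1% lower, and the median log2 change was -0.00628; at an unadjusted p under 0.05 the share was 31.4%. Of the 9 members tested in this fit 2 were higher (Ppargc1b and Pprc1) and 0 lower. As counts, 925 of all tested genes were higher and 1244 lower, and with quantile normalisation 1125 and 1047. Over the 140 tested genes of the 6 lists, 11 were higher and 15 lower, and with quantile normalisation 14 and 10. Without telomerase 1 these counts were 4 and 9, without telomerase 2 they were 3 and 7, and without telomerase 3 they were 6 and 7. Within the arrays lacking acinar transcripts they were 3 and 5, and within those carrying them 0 and 4.

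Among 30 tested regulators and cofactors of PGC-1, 3 were higher and 1 was lower in ALT tumours, with a median of 0.111. Prkab1, a regulatory subunit of the energy sensor AMPK, fell to 44.2 ± 16.3 (SD, n = 5) in ALT tumours, against 208 ± 14.3 (SD, n = 3) in the telomerase group (log2 change -1.94, limma adjusted p = 0.000395). The ALT values ran from 25.4 to 64 and the telomerase values from 199 to 224. Foxo1, a forkhead factor that binds PGC-1 alpha in liver, was higher at 809 ± 59.8 in ALT against 538 ± 59.6 in telomerase tumours (log2 change 0.58, adjusted p = 0.00386); with the mean of all its probe sets the change was 0.23 (adjusted p = 0.186). Tfeb, which drives lysosome genes, was higher by 0.52 (adjusted p = 0.00879). These 3 calls held whichever array was left out. With the replicate number as a block this list had 0 higher and 1 lower, and so it had within the arrays lacking acinar transcripts. The Foxo1 and Tfeb calls were thus lost in both settings.

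Of 13 tested paralogues and dimer partners of the factors, 1 was higher and 1 lower, with a median of 0.0283 (2 and 1 with quantile normalisation). Rxrb, a retinoid X receptor and partner of the PPAR proteins, was higher by 0.39 (limma adjusted p = 0.0437), a call that leaving out any of the 8 arrays removed (adjusted p from 0.0507 to 0.133). Nfe2, the blood-cell paralogue of Nfe2l2, was lower by 1.51 on the log2 scale, at 34.3 ± 29.4 (SD, n = 5) in ALT against 113 ± 13.2 (SD, n = 3) in telomerase tumours (adjusted p = 0.0152). The Nfe2 call was lost without telomerase 2 (0.0519) and without telomerase 3 (0.0546).

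Of 26 tested targets of Esrra, 2 were higher and 2 lower, with a median of 0.0198; with quantile normalisation 2 were higher and 1 lower. Got2, the mitochondrial aspartate aminotransferase, was higher at 2259 ± 185 (SD, n = 5) in ALT against 1686 ± 210 (SD, n = 3) in the telomerase group (log2 change 0.42, limma adjusted p = 0.0164), and Ndufa9, a subunit of complex I, was higher by 0.31 (adjusted p = 0.0418). Mtfr1, a regulator of mitochondrial fission, was lower, with a change of -0.38 (adjusted p = 0.0194). Atp5b, the catalytic beta subunit of ATP synthase, was lower as well (-0.19, adjusted p = 0.0267). Without telomerase 1 this list had 1 higher and 1 lower, and without telomerase 2 or telomerase 3 it had 0 of each (Got2 0.0709 and 0.0636, Ndufa9 0.0732 and 0.108, Mtfr1 0.0839 and 0.0502, Atp5b 0.0611 and 0.0774).

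Of 28 tested targets of Nrf1 and GABP 11 were called (39.3%, against 17.5% of all tested genes), 5 higher and 6 lower, with a median of -0.0475. The list was chosen with earlier results of these data known, and many of its genes are bright. No share was computed over genes of like signal, so the higher share is not read as a trait of these targets. The balance of directions turned with the setting, and with quantile normalisation it turned over all tested genes too. There 925 genes were higher and 1244 lower in the main fit, and 1125 and 1047 with quantile normalisation. With median centring they were 875 and 1125. In this list 6 were higher and 2 lower with quantile normalisation, 6 and 3 with median centring, and 4 and 2 with a term for acinar transcripts. With each gene's probe sets averaged 1 was higher and 5 were lower, and without the intensity trend 2 and 3. Tfam gave 1588 ± 76.4 (SD, n = 5) in ALT and 1245 ± 62.9 (SD, n = 3) in the telomerase group (log2 change 0.35, limma adjusted p = 0.00969). The ALT values of Tfam, 1526 to 1716, lay above the telomerase values, 1203 to 1318; the call was lost without telomerase 1 (0.0512) and with the mean of its probe sets (log2 change 0.15, adjusted p = 0.175). Cox4i1, a subunit of cytochrome c oxidase, was higher by 0.24 (adjusted p = 0.0172; 0.0718 without telomerase 1, 0.0588 without telomerase 2 and 0.0931 without the intensity trend). Cox6c, a subunit of the same enzyme, gave 8904 ± 422 in ALT against 11483 ± 223 in telomerase tumours (log2 change -0.37, adjusted p = 0.000914). Mrpl32, a protein of the mitochondrial ribosome, gave 627 ± 41.4 in ALT against 1124 ± 73.6 in telomerase tumours (log2 change -0.83, adjusted p = 0.000301). The Cox6c and Mrpl32 calls held whichever array was left out.

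Fewer genes of this list were called with any array left out, as over the whole array. Without telomerase 1 there were 0 higher and 2 lower, while the count over all genes was 1163 against 2169 with every array. Without telomerase 2 there were 1 and 2 (1472 over all genes), and without telomerase 3 there were 3 and 3 (1606). Without ALT 1 there were 4 and 3, without ALT 2 there were 3 and 6, without ALT 3 there were 5 and 3, without ALT 4 there were 3 and 3, and without ALT 5 there were 4 and 3, with 1762 to 2095 over all genes. Within the arrays that lack acinar transcripts 0 were higher and 2 lower (833 over all genes), and within those that carry them 0 and 1 (329).

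Of 24 tested targets of Nfe2l2, 0 were higher and 4 lower in the limma fit, with a median of 0.012; at an unadjusted p under 0.05 there were 4 and 5. Within the arrays lacking acinar transcripts 2 were higher and 2 lower, within those carrying them 0 and 1, and with the parental array in the telomerase group 2 and 4. Gsta4, a glutathione transferase that clears products of lipid peroxidation, was at 46.4 ± 10.8 (SD, n = 5) in ALT against 287 ± 43.4 (SD, n = 3) in the telomerase group (log2 change -2.29, limma adjusted p = 5.35e-05), and Tkt, the transketolase of the pentose phosphate pathway, was lower, with a change of -0.43 (adjusted p = 0.00193). Both calls held whichever array was left out. Of 19 tested PPAR targets 0 were higher and 1 lower, with a median of 0.112, and 2 of each had an unadjusted p under 0.05. Acadl, the long-chain acyl-CoA dehydrogenase, was at 249 ± 66.4 in ALT against 500 ± 134 in telomerase tumours (log2 change -0.97, adjusted p = 0.018; 0.0529 without telomerase 2 and 0.0694 without telomerase 3). The Acadl call was also lost with the mean of its probe sets (-0.47, adjusted p = 0.112), within the arrays lacking acinar transcripts (-0.58, 0.119) and within those carrying them (-1.49, 0.0684). Within the arrays lacking acinar transcripts 1 PPAR target was higher and 0 were lower. Without ALT 4, 1 PPAR target was higher and 2 were lower, and without ALT 5 or telomerase 1 there was 1 of each.

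**Figure D4:**
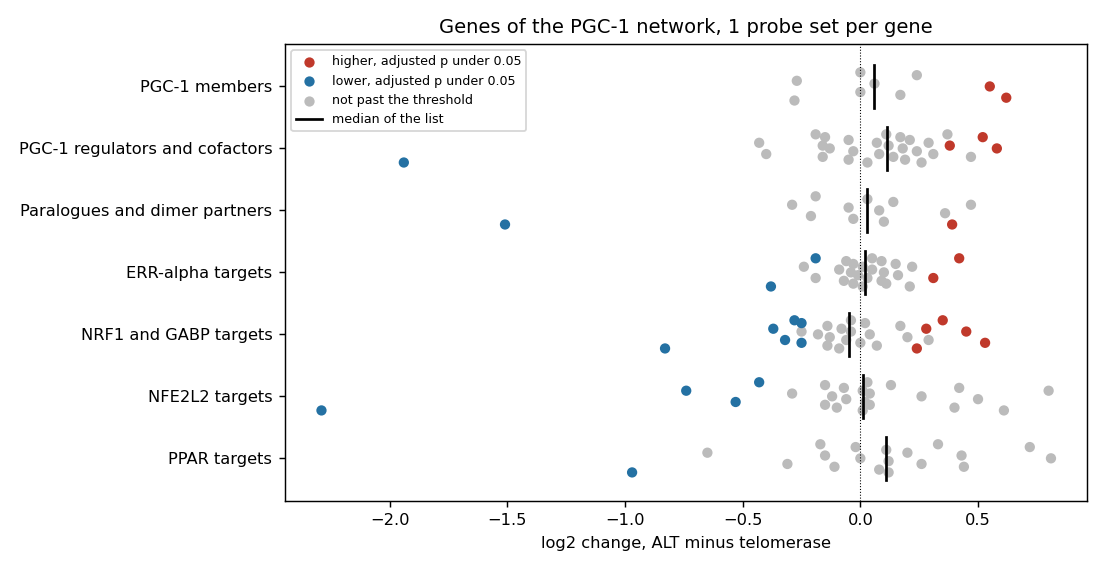
Log2 change, ALT minus telomerase, of each tested gene in the member list and 6 network lists (points, 1 probe set per gene, with vertical position only to separate them; black lines are list medians). Called genes are coloured by direction; the list medians lie between -0.0475 and 0.112 while single genes reach -2.29 (Gsta4) and -1.94 (Prkab1).

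The genes on either side of the called members were read as well; chromosome copy number was not measured. Over all 12375 tested genes 6077 had a log2 change above 0, and 7.47% were called higher and 10.1% lower. Ppargc1b lies on chromosome 18; of its 20 nearest tested neighbours (10 on each side) 3 were higher and 1 lower, with a median log2 change of 0.21, and 15 of 20 were above 0. Pprc1 lies on chromosome 19; 4 of its 20 neighbours were higher and 0 lower in the limma fit (7 and 0 at an unadjusted p under 0.05), with a median of 0.17 (0.30 without telomerase 1, 0.11 without telomerase 3) and a highest value of 0.49, below the 0.55 of Pprc1. Around Gabpa, on chromosome 16, 0 of 20 neighbours were higher and 9 were lower (0 and 13 at an unadjusted p under 0.05), with a median of -0.41, and 4 of 20 were above 0. The brighter Gabpa probe set, at -0.28, had the sign of this median, and the dimmer, at 0.55, lay above the highest neighbour, 0.38. Around the other 7 genes the medians ran from -0.10 (Ppard) to 0.05 (Nrf1). The part of these neighbourhoods in the results was not tested.

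**Figure D5:**
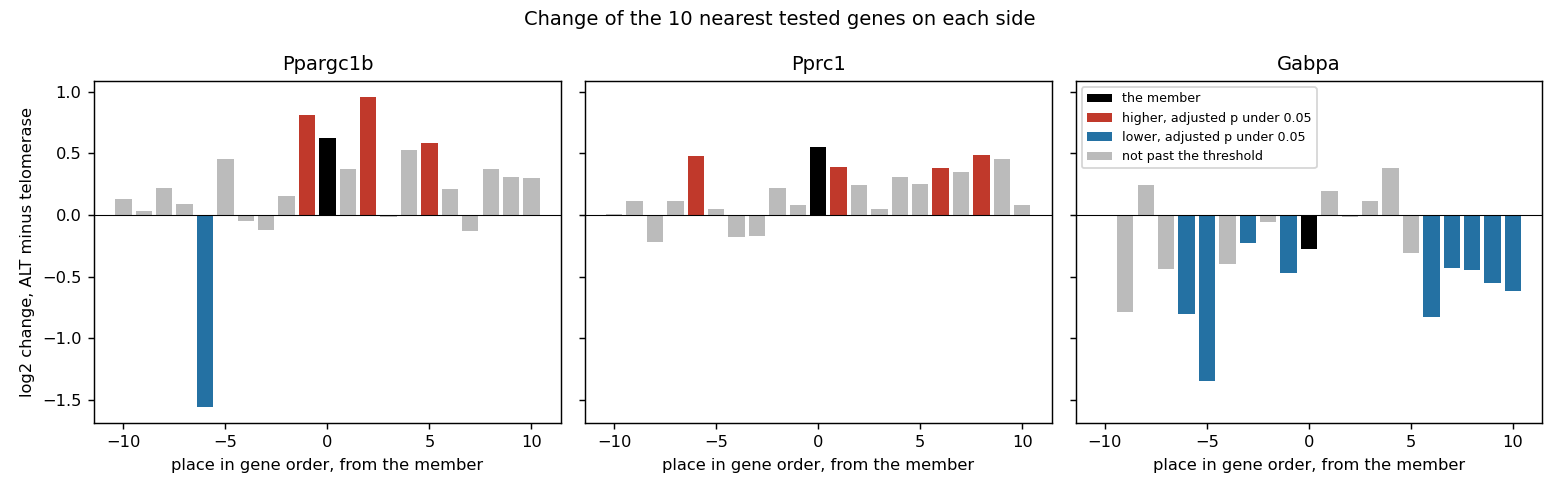
Log2 change, ALT minus telomerase, of the 10 nearest tested genes on each side of Ppargc1b, Pprc1 and Gabpa in gene order (bars; 1 probe set per gene, coloured by call), with the member in black at place 0 (for Gabpa its brighter probe set). Of the neighbours of Gabpa 9 are called lower; those of Ppargc1b and Pprc1 include 3 and 4 called higher.

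The profiles most like that of Ppargc1b over the 9 arrays, by the root mean square difference of log2 values centred on each gene's own mean, were those of Smad2 (0.1), Crnde (0.131), Sgo1 (0.133), Brd8 (0.135) and Rdm1 (0.143), against a median of 0.459 over all tested genes. Smad2 and Brd8 also lie on chromosome 18, while Crnde, Sgo1 and Rdm1 lie on chromosomes 8, 17 and 11. The share of tested genes on chromosome 18 was not computed. For Pprc1 the nearest profiles were those of Card6 (0.0608), Agpat5 (0.078), Srebf2 (0.0785), Lrpap1 (0.0826) and Setdb2 (0.083), against a median of 0.364. None of these genes lies on chromosome 19 with Pprc1. Pprc1 and Ppargc1b differed by 0.227, which put Pprc1 at place 169 in the order for Ppargc1b and Ppargc1b at place 1289 in the order for Pprc1.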

How the data were processed

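RNA from 9 T-cell lymphomas of mice was read on Affymetrix arrays. The deposited table holds 1 MAS5 intensity on a linear scale per probe set and array, per the submitters' processing notes; its version, settings and scaling target are not stated there. No detection calls were used, so the background level is unknown. Array medians ran from 39.7 to 43.7, and no further normalisation was applied; the number of arrays limits the precision.

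Of 45101 probe sets, 64 were controls. Through the array's annotation, with symbols checked against RefSeq of GRCm38.p6, 34945 of the others named 1 gene, 932 several and 9160 none. Intensities were analysed as log2 of the value plus 16, so changes of low signals are understated. Probe sets in the lowest 40% of mean intensity were left out, which left 27022. The comparison of 5 ALT with 3 telomerase tumours used limma 3.58.1 in R 4.3.3 (lmFit, eBayes with an intensity trend, two-sided), and p-values were adjusted over all tested probe sets by Benjamini-Hochberg with a threshold of 0.05. For gene lists the fit was repeated with the brightest probe set of each of 12375 genes. Pairs of probe sets of 1 gene were compared by fitting the per-array difference of their log2 values over 9987 pairs. The fit was tested on simulated data. The parental tumour, with 1 array, was described only.

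All probe sets of the members are reported; from each list the 2 genes with the smallest p in each direction among those called are named, as are the 5 genes with the nearest profiles. Members and lists were chosen with earlier results of these data known. Of 270 list genes 249 had a probe set. Other filters, pseudocounts, scalings, groupings, variance models, a term for pancreatic transcripts, and omission of each array were tried as well. Plots used Python 3.11.15, numpy 2.4.6, pandas 2.3.3 and matplotlib 3.10.9.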

Additional observations from a re-analysis of the deposited data

Results flagged for a closer look

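Among the 5 ALT tumours a single tumour stood far from the other 4 in 4 of the 40 probe sets or genes looked at; by chance about 1 in 20 would show such a gap. In Ppargc1a 1460336_at, ALT 5 gave 15 and the other ALT tumours 4.76 to 7.52. In Ppara 1439675_at, ALT 2 gave 39 and the others 20 to 22. Nfe2 was at 85.7 in ALT 4 and at 15.2 to 31.7 in the others, and Cox6c was at 9645 in ALT 2 and at 8635 to 8832 in the others. Neither Ppargc1a 1460336_at nor Ppara 1439675_at was bright enough to be tested.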

How the results depend on the processing

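The number of probe sets called, 5076, was 2699 with the replicate number as a block, 1091 with a log2 change of at least 1, 2396 within the arrays lacking acinar transcripts, 841 within those carrying them, and 2857 to 4853 with 1 array left out. The number of genes called, 2169, was 991, 464, 833, 329 and 1163 to 2095 in the same order. Of pairs of probe sets 1811 were called, 1121 with the replicate block and 1101 to 1796 with 1 array left out. The 3 called member probe sets became 1 with the replicate block, which kept Pprc1 and lost Ppargc1b (log2 change 0.55, adjusted p = 0.0637) and Gabpa 1450665_at (0.55, 0.0809), 0 with a log2 change of at least 1, 0 within either set of arrays, and 1 to 3 with 1 array left out. The 26 called list genes became 7 with the block, 3 with a log2 change of at least 1, 8 and 4 within the arrays lacking and carrying acinar transcripts, and 10 to 26 with 1 array left out. The smaller sets of arrays and omitted arrays leave fewer samples; the cause of the other shifts was not tested. Tumours of the same number correlated at -0.287, -0.374 and -0.537 in their deviations from the group means. Across all numbers, tumours alike in acinar transcripts correlated positively and the others negatively, and tumours of the same number were unlike in them. The correlations therefore cannot show whether the numbers pair the tumours. Whether a call lost under the block is a weaker effect was not tested.

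The median change of the neighbours moved for Ppargc1b within the arrays carrying acinar transcripts (0.42), for Pprc1 there (0.31), with a filter at 60% (0.31) and with 1 array left out (0.11 to 0.30), and for Gabpa with the mean of all probe sets (-0.22). None of the 3 called members changed sign under these settings; probe sets that missed the threshold did. Esrra 1442864_at was at 0.00 with a pseudocount of 64, median centring or the acinar term, 0.07 with quantile normalisation and 0.04 within arrays carrying acinar transcripts. Nrf1 1445914_at was at 0.01 with quantile normalisation and with the block, Nrf1 1424787_a_at at 0.11 and Nfe2l2 1457117_at at 0.15 within arrays carrying acinar transcripts, and Nrf1 1420978_at at -0.02 with the parental array added, -0.01 with the acinar term and -0.18 within arrays lacking acinar transcripts, where Gabpb1 1436232_a_at was at -0.02. Nfe2l2 1416543_at was at 0.03 with quantile normalisation, 0.00 with median centring, 0.07 with the parental array added, 0.01 with the acinar term and 0.16 within arrays lacking acinar transcripts. With 1 array left out, Esrra 1442864_at ran from -0.04 to 0.06, Nrf1 1420978_at from -0.08 to 0.14, Gabpb1 1436232_a_at from -0.03 to 0.12 and Nfe2l2 1416543_at from -0.10 to 0.07. Dim probe sets, such as those of Ppargc1a, limit what can be seen, since no detection calls were used.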

Other observations

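Promoter windows were at hand for 22 of the 28 targets of Nrf1 and GABP. The consensus Nrf1 motif was present in 5 of them (22.7%) and the GABP motif CCGGAAGT in 4 (18.2%), against 4.23% and 3.23% of 27025 genes with a window. Of 21 targets of Nfe2l2 with a window, 4 (19%) held TGACNNNGC, against 11.5% of all genes, and the Esrra motif TCAAGGTCA was in 0 of 20 targets of Esrra, against 0.422%. Among 9 members with a window, Gabpb1 and Ppara held the Nrf1 motif, and Pprc1 and Nfe2l2 the Nfe2l2 motif.

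A further probe set, 1447902_at, is annotated to Ppard and to 1810013A23Rik together and was kept out of the members. It gave 26.8, 44.2, 51.5, 43 and 21.8 in ALT tumours, against 40.1, 25.1 and 20.3 in telomerase tumours and 48.5 in the parental tumour.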
